A study of Saccharomyces cerevisiae with 8 samples.

Results

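The SUN family of budding yeast, with its members SIM1, UTH1, NCA3 and SUN4, was followed through ribosome profiling libraries of 4 evolved strains. The 4 genes were picked by name out of 6600 protein-coding genes, and all 4 passed the filter on low counts. NCA3 entered the set because its ribosome footprints were high in the strain Trans, so its values with Trans in the comparison are a description and carry no test. UTH1 entered because it lies in the amplified stretch of chromosome XI that all 4 strains share, which uses no measured value of UTH1. SIM1 and SUN4 entered as the other genes of the family.

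The strains are Trans (DGY1726), the ODIRA strains ODIRA_A (DGY1735) and ODIRA_B (DGY1743), and ComQuad (DGY1741). They derive from FY4/S288C, carry a fluorescent reporter of GAP1 copy number with a KanMX marker, and were each isolated as a clone from populations evolved under glutamine limitation. All of them carry a copy number variant (CNV) around GAP1, the general amino acid permease. In Trans it is a tandem duplication from TOF2 to GAP1 inside a translocation, with a further amplified stretch on chromosome V. In ODIRA_A and ODIRA_B it is an inverted triplication, and in ComQuad a complex amplification, all spanning the common core from SET3 to TRK2. Each strain was grown in 2 chemostat replicates on minimal medium with limiting glutamine, and cycloheximide was added before the harvest. The study isolated Trans and ODIRA_A after fewer generations than ComQuad and ODIRA_B, so that split and the strain cannot be told apart. The ancestor is not analysed here, so every difference below is between evolved strains. Nothing in the labels says how far the replicates of a strain were separate, and the p-values measure only the spread between these libraries.

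The SUN proteins are secreted or cell wall proteins with a conserved C-terminal domain, and they fall into 2 pairs of duplicates left by the ancient whole-genome duplication, NCA3 with UTH1 and SIM1 with SUN4. SUN4 takes part in cell wall separation after mitosis and SIM1 is its duplicate. UTH1 was found in screens for ageing and stress resistance and has been placed both in the cell wall and at the mitochondrion, where its role in mitophagy is disputed. NCA3 acts with NCA2 in the expression of the mitochondrial genes ATP6 and ATP8, which encode subunits of the ATP synthase. Messages of several wall genes, UTH1 and SUN4 among them, are bound by Ssd1, an RNA-binding protein that holds back translation and is itself controlled by the kinase Cbk1.

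The coordinates are those of the R64-1-1 build used in the deposited tables. NCA3 (YJL116C) is a single coding exon on the minus strand at chrX:193860-194873. UTH1 (YKR042W) lies on the plus strand at chrXI:519527-520624, SIM1 (YIL123W) on the plus strand at chrIX:128151-129581 and SUN4 (YNL066W) on the plus strand at chrXIV:501515-502777. Only UTH1 is inside the amplified stretch of chromosome XI.

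The part of the coding sequence that all 4 genes share most visibly holds 4 cysteines at the same spacing. The following stretches of the coding strand are shown because this is where the family can be recognised at sight, and the capitals mark the cysteine codons. They were read from the RefSeq genome, whose 17 chromosome lengths equal those in the deposited tables, at chrX:194403-194510 (minus strand), chrXI:519974-520081, chrIX:128928-129035 and chrXIV:502124-502231 (plus strand).
NCA3: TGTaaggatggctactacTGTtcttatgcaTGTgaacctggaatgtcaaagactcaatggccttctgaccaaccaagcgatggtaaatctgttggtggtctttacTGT
UTH1: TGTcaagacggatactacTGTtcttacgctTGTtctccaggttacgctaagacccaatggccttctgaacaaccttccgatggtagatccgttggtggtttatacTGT
SIM1: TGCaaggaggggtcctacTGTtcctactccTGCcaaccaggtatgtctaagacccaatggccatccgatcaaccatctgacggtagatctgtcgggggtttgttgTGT
SUN4: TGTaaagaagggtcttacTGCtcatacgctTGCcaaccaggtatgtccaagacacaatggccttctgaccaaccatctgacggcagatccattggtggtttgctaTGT

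Over these 108 bases SIM1 and SUN4 shared 88 bases and 34 of 36 encoded residues. NCA3 and UTH1 shared 83 bases and 30 residues, and the other pairs 79 to 81 bases and 27 to 30 residues. The spacing alone is not particular to the family, since 6 of the other proteins of the genome hold it too. Over whole proteins of 337 (NCA3), 365 (UTH1), 476 (SIM1) and 420 (SUN4) residues, the aligned residues were identical in 73.2% for SIM1 and SUN4 and in 67.2% for NCA3 and UTH1. The pairs across the duplicates had 58.4% to 63.5%. In a blastp search of all proteins, each member found the other 3 and, more distantly, YMR244W, a gene with only 5 to 24 footprints per library.

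Such likeness could let reads of one gene be counted on another, so the coding sequences were cut into windows of 28 bases, about the length of a footprint. No window was shared between any pair of members. None of the windows of NCA3, UTH1 or SUN4 occurred elsewhere in the genome, and 4 of 1404 windows of SIM1 did. Exact reads of this length can therefore be told apart among the 4 genes. Shorter fragments and alignments with mismatches were not checked.

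The measurement is the number of ribosome-protected fragments (RPFs) on the coding sequence (CDS) of each gene. The 8 libraries held 3723082 to 11459498 RPFs on CDSs, lowest in the ODIRA_B libraries, and 5725 genes had at least 10 RPFs in at least 2 libraries and were tested. Replicates of Trans differed most from each other, with an SD of 0.39 for the log2 ratio between them over genes, against 0.17 to 0.27 in the other strains. Levels are given as CPM, the counts scaled to a common library total after TMM normalisation. Different genes are compared only as TPM, which divides by CDS length and scales to a common total without TMM factors. In bulk cultures, footprint counts alone do not tell apart fewer cells at one stage of the cell cycle, less message and fewer ribosomes per message. For UTH1 the study set footprints against RNA. It reports fewer footprints per message in ODIRA_A and more in ODIRA_B and ComQuad, each against the ancestor.

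The SUN genes split into NCA3 on one side and UTH1, SIM1 and SUN4 on the other. UTH1, SIM1 and SUN4 were highest in ComQuad and lowest in ODIRA_A. NCA3, the duplicate of UTH1, was high in Trans, lower in ODIRA_A and at a level more than 10 times below that of Trans in both ComQuad and ODIRA_B.

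NCA3 had 1620 and 1760 RPFs in the Trans libraries, 697 and 692 RPFs in ODIRA_A, 157 and 110 RPFs in ComQuad, and 34 and 38 RPFs in ODIRA_B. As levels these were 202 and 234 CPM in Trans, 88.9 and 73.4 CPM in ODIRA_A, 13.1 and 13.7 CPM in ComQuad, and 9.44 and 10.6 CPM in ODIRA_B. No library of any strain overlapped with that of another. Both Trans libraries were above all 6 others, which was so for 6.03% of the genes tested, and both ODIRA_B libraries were below all others, which was so for 10.3%. The mean level in Trans, 218 ± 22.5 CPM (SD, n = 2), was 2.69 times that in ODIRA_A (81.2 ± 10.9 CPM), 16.3 times that in ComQuad (13.4 ± 0.459 CPM) and 21.7 times that in ODIRA_B (10.0 ± 0.837 CPM), with no test since Trans chose the gene.

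**Figure D1:**
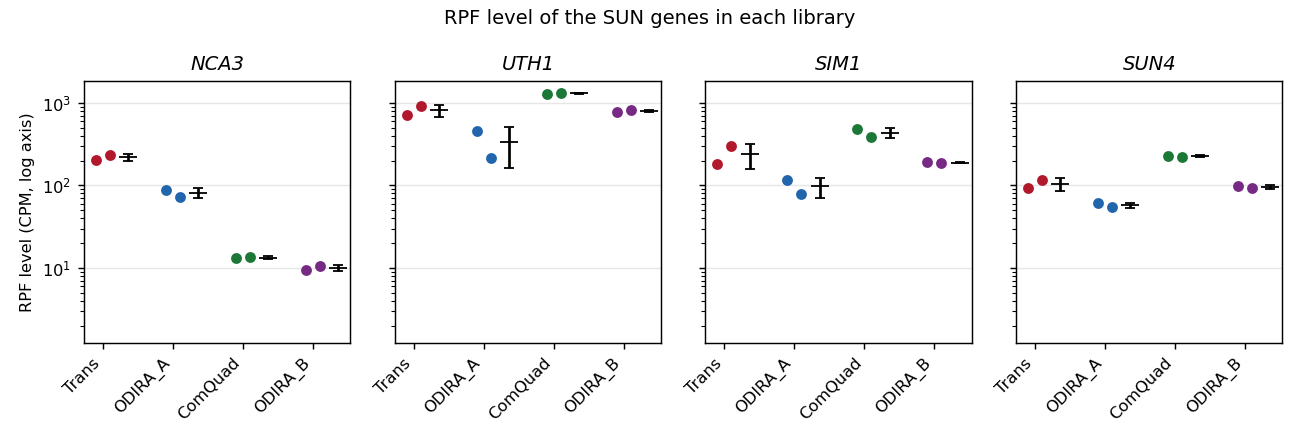
RPF level of each SUN gene (CPM, log axis) in the 2 libraries of each strain (coloured points), with the mean and SD beside them in black (n = 2). NCA3 reads 202 and 234 CPM in Trans and 9.44 and 10.6 CPM in ODIRA_B, while UTH1, SIM1 and SUN4 each peak in ComQuad and are lowest in ODIRA_A.

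NCA3 also differed among the other 3 strains. It was 6.07-fold higher in ODIRA_A than in ComQuad (log2 difference 2.60 ± 0.15, SE; edgeR quasi-likelihood test, Benjamini-Hochberg adjusted p = 7.8e-07). NCA3 was 8.09-fold higher in ODIRA_A than in ODIRA_B (log2 3.01 ± 0.18, adjusted p = 2.3e-06). The difference between ComQuad and ODIRA_B was not called (log2 0.41 ± 0.20, adjusted p = 0.16). A joint test over ODIRA_A, ComQuad and ODIRA_B passed as well (adjusted p = 5.2e-07), as it did for 41.7% of the genes.

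UTH1 had the highest density per CDS length of the family in every library. It reached 1284 and 1312 CPM in ComQuad, against 710 and 905 CPM in Trans, 785 and 820 CPM in ODIRA_B, and 460 and 214 CPM in ODIRA_A. Both ComQuad libraries were above all others, as in 17.9% of the genes tested, and both ODIRA_A libraries below, as in 10.9%, while Trans and ODIRA_B overlapped. The ODIRA_A replicates of UTH1 differed from each other by more than 2 times, so its mean there, 337 ± 174 CPM (SD, n = 2), carries a wide error. ComQuad stood 1.11 ± 0.22 above the mean of the other 3 strains on the log2 scale (adjusted p = 0.0039) and ODIRA_A stood -1.49 ± 0.26 from it (adjusted p = 0.0028). Both calls moved with the Trans libraries. For ComQuad the adjusted p was 0.071 with Trans replicate 1 left out and 0.057 with Trans replicate 2 left out, and for ODIRA_A it was 0.058 without Trans replicate 2. With 1 ODIRA_A library left out at a time, the ODIRA_A difference was -2.14 without replicate 1 and -1.04 without replicate 2, both past the threshold.

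SIM1 followed the same order with 478 and 389 CPM in ComQuad, 181 and 297 CPM in Trans, 193 and 186 CPM in ODIRA_B, and 117 and 78.3 CPM in ODIRA_A. Its ComQuad level was 1.41 ± 0.18 above the mean of the other strains on the log2 scale (adjusted p = 0.00022), and its ODIRA_A level was at -1.47 ± 0.22 (adjusted p = 0.00092). SUN4 had 229 and 223 CPM in ComQuad, 92.1 and 118 CPM in Trans, 99.6 and 92.8 CPM in ODIRA_B, and 60.8 and 55.0 CPM in ODIRA_A. Its replicates differed by only 1.03 times in ComQuad and 1.11 times in ODIRA_A. The differences were log2 1.44 ± 0.10 in ComQuad (adjusted p = 3e-06) and -1.19 ± 0.12 in ODIRA_A (adjusted p = 8.1e-05). For both genes the ComQuad libraries were above and the ODIRA_A libraries below all others.

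Counted over the strains, 6 of 12 contrasts of UTH1, SIM1 and SUN4 with the other 3 strains passed. All 3 genes were higher in ComQuad, as were 16.9% of the genes tested, and all 3 were lower in ODIRA_A, as were 12.5%. None of the 3 genes passed in Trans (log2 0.20, 0.26 and -0.04 for UTH1, SIM1 and SUN4) or in ODIRA_B (log2 0.18, -0.19 and -0.21). The joint test over the 4 strains passed for each, with an adjusted p of 0.0039 for UTH1, 0.00042 for SIM1 and 9.5e-06 for SUN4, and for 43.5% of all genes.

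**Figure D2:**
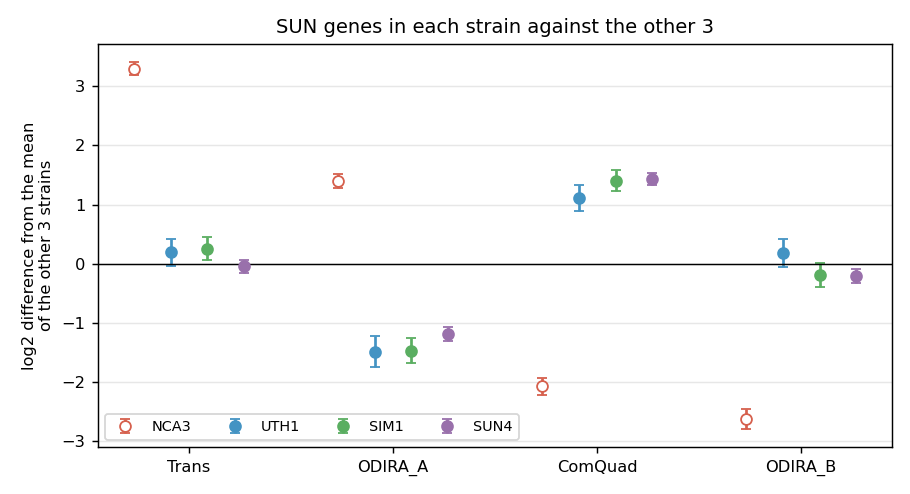
Log2 difference of each SUN gene in a strain from the mean of the other 3 strains, with its SE from the fit (bars). NCA3 has open points since it was chosen for Trans and is shown with no test, and UTH1, SIM1 and SUN4 lie between 1.11 and 1.44 in ComQuad and between -1.49 and -1.19 in ODIRA_A.

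Between pairs of strains, 15 of the 21 comparisons open to a test passed. ODIRA_A was lower than ComQuad in UTH1, SIM1 and SUN4, at log2 -1.95 ± 0.30, -2.16 ± 0.25 and -1.97 ± 0.14, with levels at 0.26, 0.22 and 0.26 times those of ComQuad (33.6% of genes differed between these strains). ODIRA_A was also lower than ODIRA_B in the same 3 genes, at log2 -1.25, -0.96 and -0.73 (22.4% of genes). Trans was higher than ODIRA_A in all 3, at log2 1.26, 1.30 and 0.86, with an adjusted p of 0.048, 0.02 and 0.0087, in a comparison that called only 3.65% of genes. Trans differed from ComQuad in SIM1 (log2 -0.86) and SUN4 (log2 -1.11) and was not called in UTH1 (log2 -0.68 ± 0.29, adjusted p = 0.099), where 30.7% of genes differed. ComQuad was higher than ODIRA_B in SIM1 (log2 1.20) and SUN4 (log2 1.23) and not called in UTH1 (log2 0.69 ± 0.29, adjusted p = 0.11), where 24.6% differed. Between Trans and ODIRA_B none of the 3 genes passed, with log2 differences of 0.01, 0.34 and 0.13, while 18.7% of all genes did. The order of levels was therefore ComQuad, then Trans and ODIRA_B together, then ODIRA_A, with the step between ComQuad and its neighbours not past the threshold for UTH1.

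Several of these pair calls were lost in other fits. For Trans against ODIRA_A, all 3 were lost in the fit on only the 4 libraries compared, with an adjusted p of 0.17 for UTH1, 0.093 for SIM1 and 0.092 for SUN4 at nearly the same differences. With 1 library left out, UTH1 passed only without ODIRA_A replicate 1, though without a ComQuad or ODIRA_B library, which are not compared, its difference was still 1.26 (adjusted p between 0.08 and 0.083). In the same comparison SIM1 (adjusted p = 0.22) and SUN4 (adjusted p = 0.13) lost theirs without ODIRA_A replicate 2, as SIM1 did without Trans replicate 2 (adjusted p = 0.083). For ODIRA_A against ODIRA_B, UTH1 was at -1.25 (adjusted p = 0.096) without either Trans library, which are not compared, at -1.27 (0.057) without ODIRA_B replicate 1, at -1.20 (0.074) without ODIRA_B replicate 2, and at -1.25 (0.17) in the fit on only the 4 libraries. SIM1 had 0.094 to 0.16 without ODIRA_A replicate 2 or either ODIRA_B library, and SUN4 had 0.051 without ODIRA_A replicate 2 and 0.054 without ODIRA_B replicate 1. For SIM1, Trans against ComQuad had 0.078 without Trans replicate 1, 0.14 without ComQuad replicate 1 and 0.061 in the fit on only the 4 libraries, and ComQuad against ODIRA_B had 0.051 without ODIRA_B replicate 2. UTH1 gained calls in other fits, where ComQuad was called higher than Trans and than ODIRA_B by DESeq2 (adjusted p = 0.02 and 0.022), by edgeR on only the 4 libraries compared (adjusted p = 0.034 and 8.7e-07), and by edgeR without either ODIRA_A library (adjusted p between 0.0089 and 0.01). The difference between ODIRA_A and ComQuad passed for all 4 genes in each of these fits.

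Per CDS length, UTH1 carried the largest part of the family's footprints in every library. Its share of the summed TPM of the 4 genes was 53.4% to 77.7%, against 12.1% to 19.7% for SIM1 and 6.89% to 11.9% for SUN4. NCA3 held 17.0% to 19.1% in Trans and 13.8% to 19.8% in ODIRA_A, and was the second gene of the family in each of these 4 libraries. In ComQuad and ODIRA_B it held 0.758% to 1.09%. Ranked by TPM among 6600 genes, NCA3 stood at place 813 in Trans and 1929 in ODIRA_A but at place 4914 in ComQuad and 5176 in ODIRA_B, while UTH1 stayed between place 141 and place 598.

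**Figure D3:**
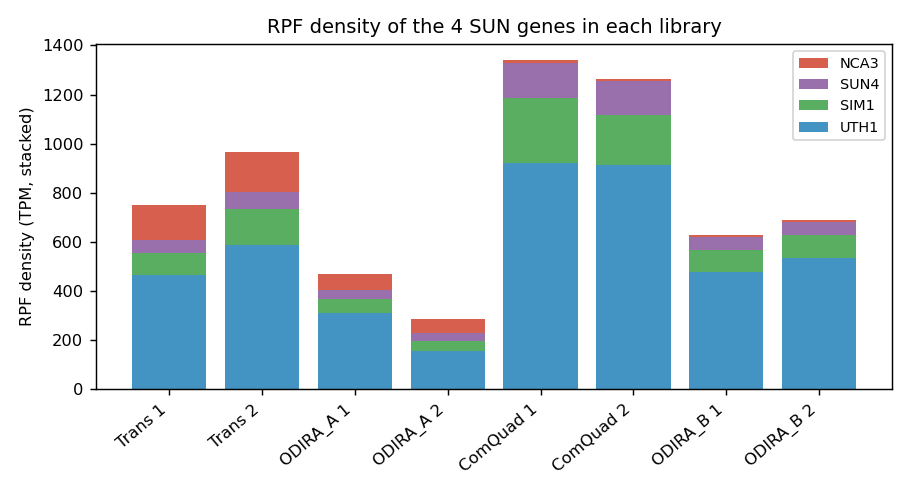
Stacked RPF density (TPM) of the 4 SUN genes in each library, from UTH1 at the bottom to NCA3 on top. The sum lies between 287 TPM in ODIRA_A replicate 2 and 1339 TPM in ComQuad replicate 1, and the NCA3 part is visible in Trans and ODIRA_A and close to nil in ComQuad and ODIRA_B.

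The density ratio within each pair of duplicates was followed by library. UTH1 density was 3.25 and 3.57 times that of NCA3 in Trans and 4.78 and 2.697 times in ODIRA_A. In ComQuad it was 90.8 and 88.4 times, and in ODIRA_B 76.8 and 71.3 times. SIM1 density stayed between 1.26 and 2.22 times that of SUN4 in all 8 libraries. The ratio of UTH1 to NCA3 in Trans and ODIRA_A did not overlap with that in ComQuad and ODIRA_B. For SIM1 to SUN4 the range in ComQuad overlapped with those of the other 3 strains, and both ODIRA_A libraries (1.69 and 1.26) were below both Trans libraries (1.73 and 2.22) and both ODIRA_B libraries (1.71 and 1.77).

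Across the 8 libraries the log2 levels of SIM1 and SUN4 had a Pearson r of 0.968, UTH1 and SIM1 of 0.949, and UTH1 and SUN4 of 0.892. NCA3 had r between -0.453 and -0.348 with the other 3. These are descriptions over 8 points in 4 pairs of replicates, and without the Trans libraries the values for NCA3 were -0.812 to -0.694. The strain means of NCA3 spanned 4.41 on the log2 scale, rank 29 among 5153 genes with a mean of at least 100 RPFs. That span runs from ODIRA_B to Trans, the strain for which NCA3 was chosen, so its rank follows in part from the choice. SIM1, UTH1 and SUN4 spanned 2.17, 2.05 and 1.96, at ranks 146, 179 and 213, against a median span of 0.53.

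UTH1 lies in the core that the study describes as amplified in every evolved strain, in Trans to the right of GAP1 and so outside the tandem duplication. The study describes triplications in ODIRA_A and ODIRA_B, and in ComQuad a triplication and then a further amplification of GAP1. Copy numbers of single genes were not used here, so these differences are not per gene copy, and a part of copy number in them was not tested. UTH1 was set beside the 19 other tested genes annotated in the stretch from SET3 to TRK2, among them GAP1 and the potassium transporter gene TRK2. This set, called core genes here, is wider than the common core the study counts and includes reading frames that overlap each other. In ODIRA_A, UTH1 was at -1.49 from the mean of the other strains, while the core genes had a median of -0.03 and none of the 19 was lower. In ComQuad, UTH1 was at 1.11 and the core median at 0.25, with 18 of 19 genes lower and YKR041W, the next gene to its left on that strand, at 1.14. In Trans, UTH1 was at 0.20, above 17 of 19 core genes, whose median was -0.33, and above all 9 tested genes of the core to the right of GAP1, whose median was -0.73. In ODIRA_B it was at 0.18, near the core median of 0.34. Between Trans and ODIRA_A, UTH1 was at 1.26 and all 19 core genes were lower, with a median of -0.31.

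**Figure D4:**
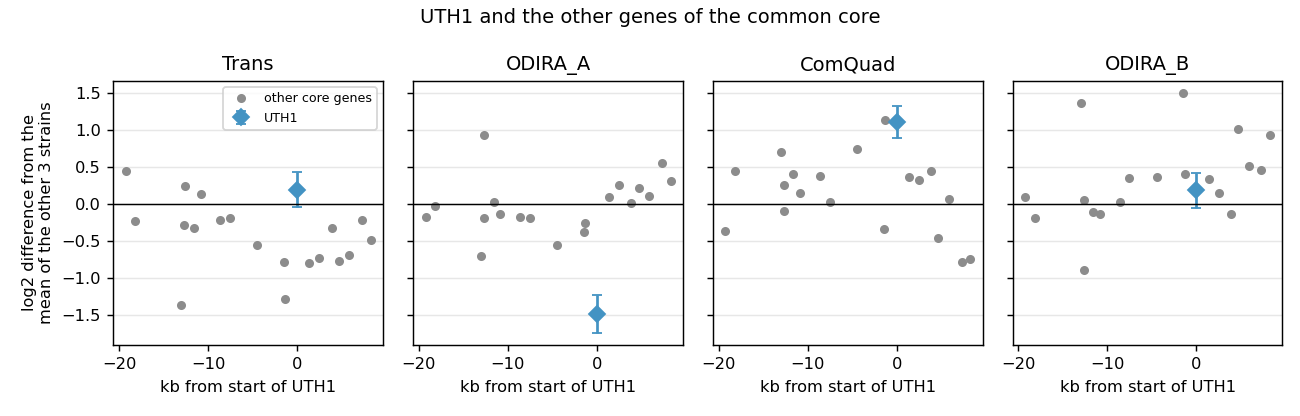
Log2 difference of UTH1 (diamond, with SE) and of the 19 other tested genes from SET3 to TRK2 (core genes, grey points) in each strain from the mean of the other 3. The horizontal axis is the distance of their starts from that of UTH1 in kb. UTH1 lies below every other core gene in ODIRA_A (-1.49) and above 18 of 19 in ComQuad (1.11).

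NCA3, SIM1 and SUN4 lie on chromosomes X, IX and XIV, away from the amplified stretches of chromosomes XI and V. The neighbours of each were read beside it. The 10 tested genes around NCA3 had median log2 differences of 0.00 in the Trans contrast, 0.13 for ODIRA_A, 0.02 for ComQuad and -0.02 for ODIRA_B, where NCA3 itself was at 3.30, 1.40, -2.07 and -2.62. The nearest ones, PHO86, a factor for phosphate transporter exit from the endoplasmic reticulum, and ASF1, a histone chaperone, were at 0.17 and -0.18 in Trans and did not pass in any strain. The largest value among the 10 in Trans was 0.87, for ALB1 (adjusted p = 0.0024), a factor of large ribosomal subunit assembly. Around SIM1 the medians were between -0.44 and 0.20. AYR1, a lipid biosynthesis reductase, moved opposite to SIM1 in ODIRA_A (0.51, adjusted p = 0.0026) and ComQuad (-0.52, adjusted p = 0.0022), and POG1 did not pass in any strain. Around SUN4 the medians were between -0.52 and 0.42. The ribosomal protein gene RPL9B was higher in ODIRA_A (0.42) and lower in ODIRA_B (-0.62), and AQR1, a plasma membrane transporter, was higher in ODIRA_A (0.98) and Trans (0.78) and lower in ComQuad (-0.45) and ODIRA_B (-1.31), unlike SUN4.

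UTH1, SIM1 and SUN4 were next set beside genes of the step SUN4 is known for, the separation of mother and daughter cell, in which wall enzymes made in the daughter cut the septum. The list held 12 genes other than the SUN genes, all tested. This list and those below were drawn up with results of these libraries known, so their counts are a description. In ComQuad all 12 were higher, against 16.9% of all genes, with a median log2 difference of 1.09 where that of all genes was -0.01. In ODIRA_A 11 of 12 were lower, against 12.5%, with a median of -1.18. In Trans 5 were lower (5.71% of all genes) and none higher (9.52%), and in ODIRA_B 3 were higher (12.0% of all genes) and none lower (6.55%).

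The highest in ComQuad were BUD9, a bud site landmark, at 1.56, DSE3 at 1.42 and DSE1, a daughter cell protein, at 1.37. DSE1 had 537 and 585 CPM in ComQuad, against 228 and 231 CPM in Trans, 151 and 134 CPM in ODIRA_A, and 301 and 327 CPM in ODIRA_B. The lowest in ODIRA_A were EGT2, a wall protein of cell separation, at -1.41, ASH1, the daughter-specific repressor of HO, at -1.37, and DSE3 at -1.31. In Trans DSE3 (-0.77), BUD9 (-0.55) and AMN1, an antagonist of mitotic exit, (-0.51) were the lowest, and in ODIRA_B DSE4 (0.67), DSE3 (0.65) and ASH1 (0.49) the highest. The 3 SUN genes had no call in Trans or ODIRA_B. With 1 library left out at a time, 10 to 12 of the 12 genes were called higher in ComQuad and 9 to 11 lower in ODIRA_A. The Trans count was as low as 1 without ODIRA_A replicate 1, ComQuad replicate 1 or either ODIRA_B library, and the ODIRA_B count was 1 without either ODIRA_B library and 5 without Trans replicate 2.

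The Ssd1 targets are mostly those the study names from earlier work, and the list was drawn up with results of these libraries known. Of the 9 genes other than the SUN genes, 8 were higher in ComQuad (16.9% of all genes) and 7 lower in ODIRA_A (12.5%), with medians of 1.10 and -1.29. None passed in Trans, and in ODIRA_B 1 was higher (12.0% of all genes) and 1 lower (6.55%), a share near that of all genes. SRL1, a wall mannoprotein, was the largest in both contrasts at 1.80 in ComQuad and -1.88 in ODIRA_A, with 702 and 565 CPM in ComQuad against 105 and 82.5 CPM in ODIRA_A. Next came the glucanase-like SCW10 (1.23) and the wall protein TOS1 (1.23) in ComQuad, and SCW4 (-1.71) and SCW10 (-1.53) in ODIRA_A. In ODIRA_B TOS1 was higher (0.37) and the G1 cyclin CLN2 lower (-0.54). The list shares CTS1 and DSE2 with the cell separation list, so the counts are not separate. Without ComQuad replicate 1 the ComQuad count was 5 of 9. Without Trans replicate 1, 4 genes were called higher in Trans and 4 lower in ODIRA_B, and without either ODIRA_B library none was called in ODIRA_B.

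**Figure D5:**
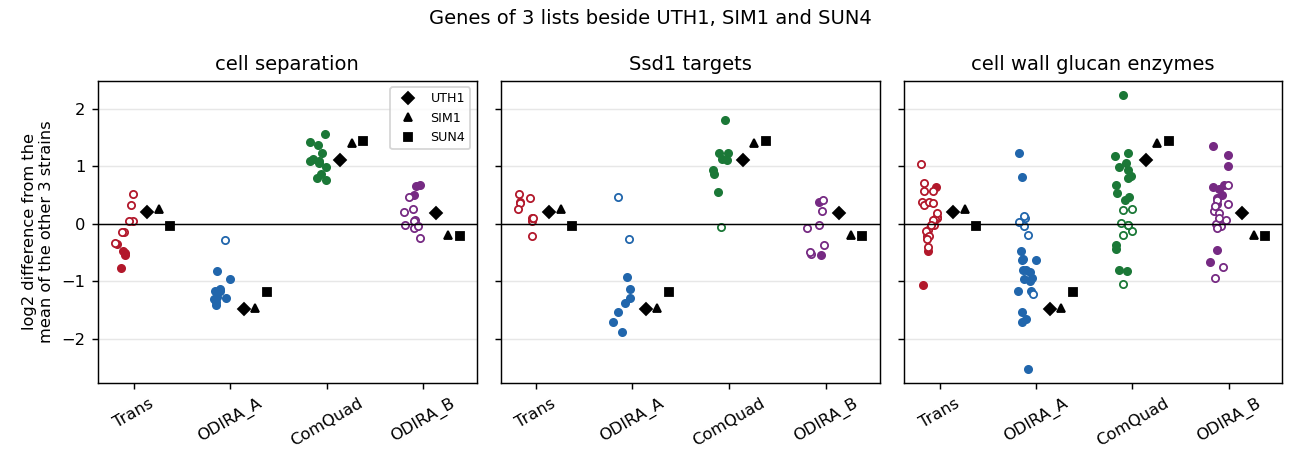
Log2 difference of each list gene in a strain from the mean of the other 3 (filled where the adjusted p was under 0.05, open otherwise), for 12 cell separation genes, 9 Ssd1 targets and 24 cell wall glucan enzymes, with UTH1, SIM1 and SUN4 in black to the right. Cell separation genes lie above 0 in ComQuad and below 0 in ODIRA_A throughout, while the glucan enzymes spread to both sides.

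Enzymes of cell wall glucan formed a wider list of 25 genes. It shares 2 genes with the Ssd1 targets and 2 with the cell separation list, so its counts are not separate from theirs. Of the 25 genes 24 were tested and SPR1, with at most 8 RPFs, was not. In ComQuad 12 were higher (16.9% of all genes) and 4 lower (16.9%), with a median of 0.33. The share of lower genes there was near that of all genes. In ODIRA_A 2 were higher (12.1% of all genes) and 16 lower (12.5%), with a median of -0.80. ODIRA_B had 9 higher (12.0% of all genes) and 2 lower (6.55%), and Trans 1 higher (9.52%) and 2 lower (5.71%). The transglycosidase UTR2 spanned the most, at 2.24 in ComQuad, 1.35 in ODIRA_B, -1.06 in Trans and -2.53 in ODIRA_A. In ComQuad SCW10 (1.23) and the glucanosyltransferase GAS3 (1.18) followed, and FKS3 (-0.82), a relative of the glucan synthase subunits, and KNH1 (-0.80) and SKN1 (-0.44), of the branched wall glucan, were lower. In ODIRA_A SCW4 and the transglycosidase CRH1 (-1.66) were the next lowest, and GAS2 (1.23), a glucanosyltransferase of spore wall assembly with at most 42 RPFs in a library, and KNH1 (0.81) were higher. In ODIRA_B CRH1 (1.20) and the glucan synthase subunit GSC2 (1.00) were higher, and KNH1 (-0.66) and KRE5 (-0.46) lower. In Trans KNH1 (0.64) was the gene that rose, and UTR2 and DSE4 (-0.48) fell. CRH1 and GSC2 were thus higher in ODIRA_B, where none of the 3 SUN genes had a call. In Trans 6 were called higher without Trans replicate 1 and 6 lower without Trans replicate 2. The ComQuad count of higher genes was 7 without ComQuad replicate 1 and that of lower genes 1 without either ComQuad library, and the ODIRA_B count was 4 without ODIRA_B replicate 1 and 3 without ODIRA_B replicate 2.

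The RAM network holds the kinase Cbk1, which acts on Ssd1. Its list held 8 genes, all tested. In Trans 1 was higher (9.52% of all genes) and in ComQuad 1 was higher (16.9%). In ODIRA_A 2 were lower (12.5%) and in ODIRA_B 2 were higher (12.0%). Counts of 1 or 2 genes are too few to set apart from these shares. Among the genes of the network the kinase KIC1 was lower in ODIRA_A (-0.51). MOB2, the partner of Cbk1, was higher in Trans (0.68, adjusted p = 0.047, at 76.3 ± 35.3 CPM, SD, n = 2). SOG2 (0.43) and SSD1 (0.54) were higher in ODIRA_B. The count of genes higher in Trans was 3 without Trans replicate 1 and 0 without any other library, and the count of those lower in ODIRA_A was 6 without Trans replicate 1 and 0 without ODIRA_A replicate 2. In ODIRA_B the count of higher genes was 0 without either of its own libraries. SSD1 had 340 and 362 CPM in ODIRA_B, against 224 and 296 CPM in Trans, 216 and 236 CPM in ODIRA_A, and 232 and 251 CPM in ComQuad (adjusted p = 0.011 for ODIRA_B against the others). In ComQuad and ODIRA_A, where UTH1, SIM1 and SUN4 moved, SSD1 was at -0.18 (adjusted p = 0.27) and -0.31 (adjusted p = 0.092).

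NCA3 was set beside the genes with which it is known to act. NCA2, its partner, was higher in ODIRA_A at 81.6 and 85.3 CPM, against 61.9 and 61.4 CPM in Trans, 56.0 and 58.5 CPM in ComQuad, and 68.0 and 57.9 CPM in ODIRA_B (log2 0.46 from the mean of the others, adjusted p = 0.0077), a call lost without ODIRA_A replicate 2. The nuclear factors AEP3, ATP22 and MTF2 (also named NAM1) did not pass in any strain. The mitochondrial genes ATP6 and ATP8 themselves had nearly no RPFs outside ODIRA_B. ATP6 had 49 and 57 RPFs in ODIRA_B, against 0 in both Trans libraries, 1 in each of ODIRA_A and 2 in each of ComQuad. ATP8 had 15 and 12 RPFs in ODIRA_B and at most 1 in any other library. Both genes reached the filter of 10 RPFs in 2 libraries only through the ODIRA_B libraries. Their values in all strains are therefore a description and carry no test. With 1 of the ODIRA_B libraries left out, neither gene reached the filter, so neither was fitted. Cytosolic footprint libraries recover few mitochondrial ribosomes, and their recovery in the ODIRA_B libraries was not tested.

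Genes with the closest patterns over the 8 libraries were ranked by Pearson r of log2 CPM, as a description. Those nearest to NCA3 were SIR1, a silencing factor (0.990), UGP1, which makes UDP-glucose (0.982), RPS19B, a ribosomal protein (0.975), UGO1, of mitochondrial fusion (0.972), and MZM1, of mitochondrial complex III assembly (0.965). Their spans were far smaller than that of NCA3. In ODIRA_A the study places a breakpoint of the amplification inside SIR1 and leaves that gene out, which limits its values in that strain and its likeness to NCA3. SIR1 had 60.5 and 61.7 CPM in Trans, 52.0 and 43.9 CPM in ODIRA_A, 29.5 and 27.5 CPM in ComQuad, and 26.9 and 29.6 CPM in ODIRA_B. UGP1 averaged 582 ± 27.1 CPM in Trans and 343 ± 7.96 CPM in ODIRA_B (SD, n = 2 each).

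The nearest to UTH1 were PRY1, a secreted sterol-binding protein (0.980), SCW4 (0.976) and PRY3, a wall protein of the same family as PRY1 (0.972). PRY1 had 469 and 430 CPM in ComQuad, 226 and 257 CPM in Trans, 213 and 227 CPM in ODIRA_B, and 129 and 76.5 CPM in ODIRA_A, the order of UTH1. The nearest to SIM1 were MSB2, a cell surface sensor (0.992), DSE2, a daughter cell wall protein (0.992), and SRL1 (0.987). The nearest to SUN4 were GIC1, an effector of Cdc42 in bud emergence (0.995), OPT2, an oligopeptide transporter (0.994), and TOS4, a G1/S transcription regulator (0.989). OPT2 had 3442 ± 317 CPM in ComQuad, against 999 ± 282 in Trans, 700 ± 30.8 in ODIRA_B and 343 ± 53.4 in ODIRA_A (SD, n = 2 each). Ranked by Spearman rho in place of r, none of these 14 genes stayed among the nearest. Over 8 libraries several genes tied at a rho of 1.0, and ties were taken in the order of the annotation. The loss under rho therefore does not measure how stable the nearest genes are.

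Upstream of the start codon the members were searched for the Ssd1 motif, spelled CNCTCNCT, CNCTCNTT, CNTTCNCT or CNTTCNTT, on the strand of the message. In the 300 bases before the start codon UTH1 held 6 matches and NCA3 held 4, while SIM1 and SUN4 held none. Over all genes 33.9% held at least 1 match, 0.776% held 4 or more and 0.198% held 6 or more. In 500 bases, UTH1 held 7, NCA3 4, SUN4 3 and SIM1 none, and 48.2% of all genes held at least 1. The match of NCA3 closest to the start codon and that farthest from it are shown so that the 2 sites can be read side by side, with the motif in capitals.
NCA3, bases -16 to -9, chrX:194882-194889, minus strand: acttaactcgtCTCTCTCTaacacataatg
NCA3, bases -255 to -248, chrX:195121-195128, minus strand: tagttgatatcCTCTCTCTtgcttatcttt

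Of the UTH1 matches those starting at -91 and -87 overlap each other, so 6 matches are 5 separate places. NCA3 and UTH1, the 2 members with the most matches, moved in opposite directions, with ODIRA_A at 6.07 times the ComQuad level in NCA3 and at 0.26 times in UTH1. On either strand of the 500 bases, none of the 4 genes held the element MCB, spelled ACGCGT (5.19% of genes did), or the stress element CCCCT (34.0%). SIM1 and SUN4 each held 1 SCB element, spelled CGCGAAA, at -226 and -163, as did 5.56% of all genes, and UTH1 and NCA3 held none. These are matches of letters in a window and not sites shown to be bound.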

How the data were processed

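Ribosome profiling was read from 8 libraries, 2 replicates of each of the strains Trans, ODIRA_A, ComQuad and ODIRA_B. The deposited values are whole-number counts per annotated feature, which the authors made by trimming with cutadapt, aligning with STAR after removing rRNA, tRNA and snRNA, and counting reads on the same strand with bedtools on the R64-1-1 annotation. How reads with several matches were handled is not given in the sources used here.

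Counts of CDS features were summed per gene and used as deposited. The 5725 of 6600 genes that reached 10 RPFs in 2 or more libraries were fitted with edgeR 4.0.16 (R 4.3.3) by the quasi-likelihood test with TMM factors and strain as the only term, which left 4 residual degrees of freedom. All p-values named adjusted are Benjamini-Hochberg values over all 5725 genes, with a threshold of 0.05, and an SE is the log2 difference over the root of its F statistic. CPM used TMM factors and TPM did not. The fit was tested on simulated counts before use. DESeq2 1.42.0 was an alternative, and so were other normalisations, filters, gene features in place of CDSs, a replicate block and leaving out each library.

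Sequences came from the RefSeq R64 genome. Proteins were translated from it, aligned globally with Biopython 1.88 and searched with blastp 2.17.0.

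The members and gene lists were chosen with earlier results of these data known. Genes named in the text are the 4 members, the 5 with the highest r to NCA3 and the 3 with the highest r to each other member (mean of at least 100 RPFs, log2 CPM with a prior count of 2), up to 3 rises and 3 falls past the threshold per list and contrast, the genes beside NCA3, SIM1 and SUN4, and SSD1. YMR244W, YKR041W, ALB1, AQR1 and further list genes were named after their values were seen. The RNA-seq, proteomic and ancestor data of the study were not analysed here. A gene that the list counts include, and some upstream sequence, are not reported here.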

Additional observations from a re-analysis of the deposited data

How the results depend on the processing

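NCA3 kept its direction and its side of the threshold between ODIRA_A, ComQuad and ODIRA_B in every alternative that was run. UTH1, SIM1 and SUN4 kept their 6 calls in ComQuad and ODIRA_A under DESeq2, RLE size factors, TMM without the amplified segments, no filter, at least 10 RPFs in every library, gene features and the replicate block. With 1 library left out at a time, UTH1 ranged between 0.96 and 1.33 in ComQuad and between -2.14 and -1.04 in ODIRA_A on the log2 scale, and its joint test between an adjusted p of 0.00021 and 0.075. SIM1 in Trans ranged between -0.15 and 0.57, SUN4 in ODIRA_B between -0.27 and -0.15, each passing once (without Trans replicate 1), and NCA3 in ODIRA_A between 1.25 and 1.53. The fit on only the 4 libraries compared gave 12 of 21 pair calls, and DESeq2 on all libraries gave 17. The joint test over 3 strains was not run in DESeq2.

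The libraries were taken to share only a replicate number, since not every pair of strains had log2 ratios of replicate 1 to 2 correlated above 0.1 over 5153 genes. The r was 0.107 to 0.231 among Trans, ODIRA_A and ODIRA_B and -0.207 to -0.085 between ComQuad and each of these. The block was run with the labelled numbers, and no other pairing was run. With the replicate block, 6 of 12 contrasts with the other strains and 14 of 21 pairs were called, and UTH1 in Trans against ODIRA_A was lost (adjusted p = 0.056). Of the 14 nearest genes, 8 remained without Trans replicate 1, 7 without Trans replicate 2 and 0 with Spearman rho, where ties decided the ranking. The order of the family by TPM was the same in 8 of 8 libraries with effective lengths. In ODIRA_B, the 34 and 38 RPFs of NCA3 limit its precision. Only 2 libraries per strain limit every SD.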
